A study of Mus musculus with 6 samples.

Results

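Platelet-derived growth factors (PDGF) and hepatocyte growth factor (HGF) are secreted ligands of receptor tyrosine kinases, and the 8 genes described here are ligands and receptors of these systems. Members were the rows of the deposited table whose symbol was Pdgfa, Pdgfb, Pdgfc, Pdgfra, Pdgfrb, Hgf, Met or Mst1r. Each symbol had 1 row, so 8 of 55385 gene rows were taken. The table came from bulk RNA sequencing of sorted mouse cells. They were taken from squamous cell carcinomas (SCC) of the skin, which were induced with DMBA and TPA, a carcinogen and a tumour promoter. A pair of sorted populations was compared, each with 2 libraries. The submitters call the population with high Itga6, the integrin alpha 6 chain, and with CD80, a co-stimulatory ligand, tumour stem-like cells (Itga6hi CD80pos). They call the population with low Itga6 and no CD80 differentiated cancer cells (Itga6low CD80neg). Both come from the same tumour type, and the labels used here give neither strain nor age, nor whether libraries came from separate or pooled mice. The Itga6hi CD80neg group was not analysed here.

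PDGF ligands are dimers built from A, B, C or D chains. The receptor chains pair on ligand binding: Pdgfra, the alpha chain, binds A, B and C chains, and Pdgfrb, the beta chain, binds B and D chains. In skin, keratinocytes are a known source of PDGF-A, while fibroblasts and the mural cells of vessels carry the receptors. HGF is made mainly by mesenchymal cells and binds Met, which epithelial cells carry. Mst1r encodes RON, the relative of Met that binds macrophage-stimulating protein (MSP), the product of Mst1.

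Ligand and receptor genes mostly lay on opposite sides of the comparison. Transcripts of Pdgfa, Pdgfb, Met and Mst1r were higher in Itga6hi CD80pos cells, and those of Pdgfra, Pdgfrb and Hgf were higher in Itga6low CD80neg cells. Pdgfc passed in neither direction. All 8 genes passed the filter of 1 TPM (a share of all transcripts that accounts for their length) in 2 libraries. On deposited TPM, limma called 4 of 8 higher in Itga6hi CD80pos at an adjusted p under 0.05, where 57.0% of all 13474 genes tested were called higher. It called 3 of 8 lower, where 9.48% of all genes were. The share of higher calls is near the background. The median change over all genes was 1.27 (log2) on deposited TPM. By libraries, both Itga6hi CD80pos values lay above both others for 4 of 8 genes (73.5% of all genes) and below them for 3 of 8 (12.9% of all genes). The libraries were scaled in 5 ways: deposited TPM, median-of-ratios, quantile normalization, and totals without haemoglobin or without 4 abundant gene classes. Under every one of them, 0 of 8 genes were higher (background 6.46%) and 3 of 8 were lower (background 8.30%).

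**Figure D1:**
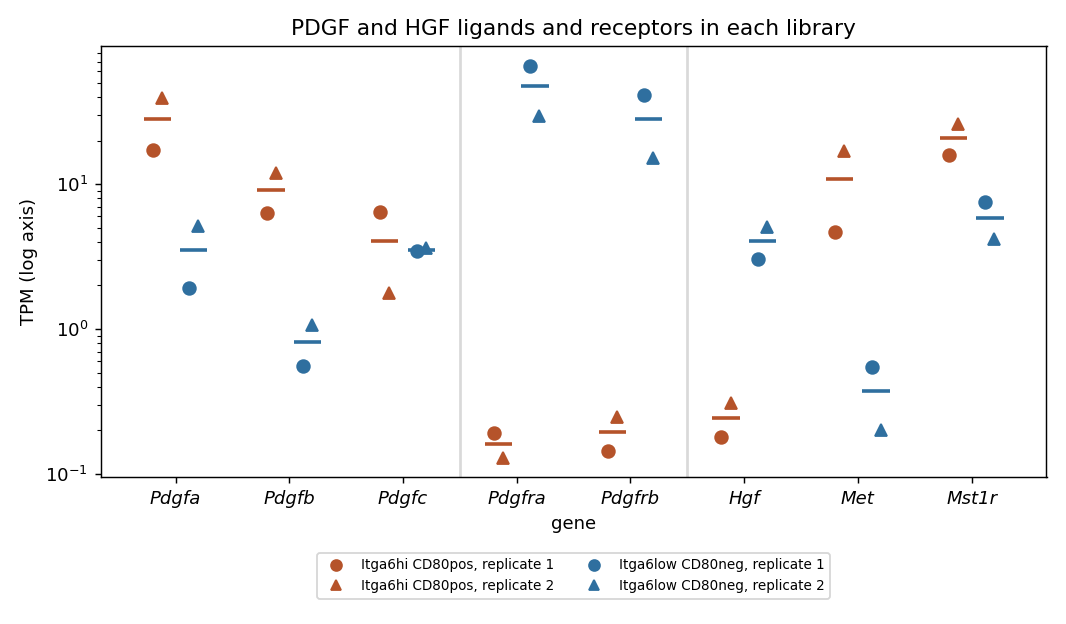
TPM on a log axis of the 8 genes in each of the 4 libraries, with points for libraries, marker shapes for replicate numbers and short bars for the mean of each pair. Pdgfra and Pdgfrb lie under 0.25 TPM in both Itga6hi CD80pos libraries and over 15 TPM in both Itga6low CD80neg libraries, and Pdgfc overlaps between the groups.

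The libraries differed in more than these genes. Haemoglobin genes held 70.9% and 50.4% of TPM in the Itga6low CD80neg libraries and under 0.02% in the others, which lowers every other TPM value there. The 10 keratinocyte markers summed to 48615 and 49183 TPM in Itga6hi CD80pos and to 1965 and 5991 TPM in Itga6low CD80neg. The 15 fibroblast markers summed to 35.4 and 132 TPM against 9876 and 6940 TPM. The Itga6low CD80neg libraries, whose label names cancer cells, held Krt14, a basal keratin, at 1244 and 4000 TPM and Col3a1, a fibroblast collagen, at 2963 and 2123 TPM. All markers that passed the filter were also higher there for red cells (7), for melanocytes (4) and for skeletal muscle (3). Of all genes tested, 9.48% were called higher there. Leaving out either Itga6hi CD80pos library leaves a single library in that group. Calls of these red cell, melanocyte and skeletal muscle markers were then mostly lost. Most calls over all genes tested were lost there too, so such a loss is not particular to the genes named here. Marker sums of macrophages, neutrophils, T and NK cells and mast cells were at most 11.5, 16.9, 6.59 and 6.82 TPM in any library. In bulk samples, fewer cells of a type and less RNA per cell cannot be told apart. The sorted genes followed the labels, with Itga6 at 178 and 339 TPM in Itga6hi CD80pos and both libraries of the other group at 1.65 TPM or less. Cd80 stood at 6.24 and 1.89 TPM in the first group and 0.642 and 0.563 TPM in the second. Sequencing depth cannot be read from TPM and is unknown.

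The promoters of 4 genes are shown, an A-chain ligand and an HGF receptor from the Itga6hi CD80pos side and an alpha receptor and HGF from the other, because they differ in base composition. They are RefSeq windows on GRCm38.p6, from 250 bases before to 50 after a gene start, and windows of 6 of the 8 genes were used. Pdgfrb was left out by a rule on genome location, and no window of Pdgfb was used. Neither gene enters the comparison of base composition, and whether the source holds windows for them is not stated here. Where a gene had several windows, the one nearest the annotated gene start is shown. Capitals mark matches, on either strand, to the GC box (GGGCGG), the TATA box (TATAAA) or the AP-1 site (TGANTCA), and none of these overlapped.
Pdgfa, chr5:138994895-138995194, minus strand: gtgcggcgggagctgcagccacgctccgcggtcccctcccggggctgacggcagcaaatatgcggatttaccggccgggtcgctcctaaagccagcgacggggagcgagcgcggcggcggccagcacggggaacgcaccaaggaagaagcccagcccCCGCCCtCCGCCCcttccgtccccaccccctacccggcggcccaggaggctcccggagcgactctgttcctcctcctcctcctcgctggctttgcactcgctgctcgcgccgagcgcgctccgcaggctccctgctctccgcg
Met, chr6:17463707-17464006, plus strand: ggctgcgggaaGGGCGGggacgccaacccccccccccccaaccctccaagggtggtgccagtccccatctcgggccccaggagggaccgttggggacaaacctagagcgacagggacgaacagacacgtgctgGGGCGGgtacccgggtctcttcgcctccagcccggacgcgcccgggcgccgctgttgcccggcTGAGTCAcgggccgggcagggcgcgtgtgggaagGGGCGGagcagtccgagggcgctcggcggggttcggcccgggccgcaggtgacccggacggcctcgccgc
Pdgfra, chr5:75152001-75152300, plus strand: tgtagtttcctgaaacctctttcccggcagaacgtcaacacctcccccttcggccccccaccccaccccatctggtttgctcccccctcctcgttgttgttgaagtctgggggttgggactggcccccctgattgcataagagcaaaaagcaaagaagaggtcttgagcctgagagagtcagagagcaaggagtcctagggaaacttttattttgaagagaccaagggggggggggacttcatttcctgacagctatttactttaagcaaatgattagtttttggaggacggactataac
Hgf, chr5:16553245-16553544, plus strand: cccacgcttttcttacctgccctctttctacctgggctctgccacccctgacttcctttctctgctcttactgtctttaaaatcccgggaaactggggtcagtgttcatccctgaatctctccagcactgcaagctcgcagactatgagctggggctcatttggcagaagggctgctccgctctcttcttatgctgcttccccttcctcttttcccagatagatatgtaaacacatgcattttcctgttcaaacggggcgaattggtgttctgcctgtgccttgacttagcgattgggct

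The Pdgfa and Met windows are rich in G and C, at 73.3% and 75.7%, and hold 37 and 34 CpG dinucleotides. The Pdgfra and Hgf windows have 51.0% and 51.3% G and C, with 5 and 7 CpG. Over all 32851 promoter windows the medians were 52.7% and 7. The Met window holds 3 GC boxes and 1 AP-1 match, the Pdgfa window 2 GC boxes, and the Pdgfra and Hgf windows no match to any of the 3 motifs. Of all windows, 35.7% hold a GC box, 13.6% a TATA box and 7.81% an AP-1 match. Mst1r, although on the same side as Met, has windows of 59.0% and 57.0% G and C, the first with 2 GC boxes, and Pdgfc has 55.0% with none. A match is a description of the letters and says nothing about binding.

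Among PDGF ligands, the A and B chains were higher in Itga6hi CD80pos. Pdgfa (chromosome 5, 138976014 to 138997370, minus strand, GRCm38), which encodes the A chain, stood at 17.2 and 39.0 TPM in Itga6hi CD80pos and at 1.93 and 5.11 TPM in Itga6low CD80neg. Both Itga6hi CD80pos libraries lay above both others, with replicate 2 the higher in each group. Its log2 fold change on the log2(TPM + 1) scale was 2.67 ± 0.55 (SE, n = 2 libraries each, limma adjusted p = 0.0118), which is 1.40 above the median of all genes. Pdgfb (chromosome 15, 79995874 to 80014977, minus strand), the B chain, stood at 6.31 and 11.9 TPM against 0.555 and 1.07 TPM. Its groups did not overlap either, and replicate 2 was again the higher in both. The log2 fold change was 2.44 ± 0.39 (SE, adjusted p = 0.00704), 1.17 above the median of all genes.

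Neither ligand call held everywhere. Over the other 4 scalings the adjusted p of Pdgfa was 0.0643 to 0.118 and that of Pdgfb 0.0409 to 0.0638, with fold changes of 1.54 to 1.78 and 1.57 to 1.96. Without Itga6hi CD80pos replicate 1 or replicate 2 both calls were lost (Pdgfa adjusted p = 0.0741 and 0.0945, Pdgfb 0.0587 and 0.0623), and the Pdgfa call also without Itga6low CD80neg replicate 1 (0.0744). Keratinocyte markers moved with both genes: 10 of 10 were higher, with log2 fold changes of 2.71 to 5.54 and a median of 3.82. Of all genes tested, 57.0% were called higher. Under all 5 scalings 6 of the 10 markers were called higher, beside 6.46% of all genes. Calls of these markers were mostly lost without either Itga6hi CD80pos library, as they were over all genes. Per 1000 TPM of keratinocyte markers, Pdgfa held 0.353 and 0.794 TPM in Itga6hi CD80pos and 0.980 and 0.853 TPM in Itga6low CD80neg, so both Itga6hi CD80pos values lay below the others on that scale. Pdgfb held 0.130 and 0.243 against 0.283 and 0.178 TPM, which overlap. The part of the keratinocyte share in these differences was not tested.

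Pdgfb is also made by endothelium and stored in platelets, so their markers stand beside it. Of 12 endothelial markers 5 passed the filter, 2 were higher and 2 lower, beside 57.0% and 9.48% of all genes tested. Under all 5 scalings 0 were higher and 1 was lower, beside 6.46% and 8.30% of all genes. The calls of these markers were lost without either Itga6hi CD80pos library. The 12 markers summed to 19.6 and 27.7 TPM in Itga6hi CD80pos against 31.7 and 14.7 TPM. The defining junction gene Cdh5 had 0.694 and 1.39 TPM against 0.0953 and 0.0326 TPM. Egfl7, a secreted endothelial factor, had 10.4 and 9.95 TPM against 0.873 and 1.47 TPM. Eng, a TGF-beta co-receptor and the endothelial marker with the highest value, ran the other way at 1.51 and 2.12 TPM against 19.3 and 6.69 TPM. Platelet markers summed to 1.94 and 4.06 TPM against 8.12 and 7.07 TPM. Most of each sum was Itga2b, at 1.63 and 3.63 TPM against 6.71 and 5.84 TPM. Of the 8 platelet markers only Itga2b passed the filter. It was called in neither direction on deposited TPM (limma adjusted p = 0.0505), though it was lower in Itga6hi CD80pos under the other 4 scalings (0.0290 to 0.0448). Pf4, which defines platelets, was listed at 1.08 TPM in Itga6low CD80neg replicate 1 and at 0 in the other libraries. The part of endothelial RNA in the Pdgfb difference was not tested.

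Pdgfc (chromosome 3, 81036416 to 81214040, plus strand), the C chain, which is secreted latent and freed by proteinases, did not differ beyond its spread. It stood at 6.38 and 1.79 TPM in Itga6hi CD80pos and at 3.45 and 3.61 TPM in Itga6low CD80neg. The Itga6hi CD80pos libraries lay on either side of the other pair, and differed from each other by 3.57 times. The log2 fold change was 0.00 ± 0.51 (SE, adjusted p = 0.998) with a 95% interval of -1.28 to 1.28, so a change of more than 2-fold in either direction lies within the interval. The sign turned under the other scalings, to between -0.86 and -1.19, with adjusted p from 0.201 to 0.266.

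Pdgfd, the D chain and the remaining PDGF ligand, lay on the receptors' side. It stood at 0.0283 and 0.191 TPM in Itga6hi CD80pos and at 6.97 and 9.32 TPM in Itga6low CD80neg. Its log2 fold change, -3.03 ± 0.29 (SE, adjusted p = 0.00373), was called under all 5 scalings. The make-up of the ligand transcripts is a ratio within each library, which a scaling factor cannot move. Pdgfa held 57.5% and 73.7% of PDGF ligand TPM in Itga6hi CD80pos and 14.9% and 26.8% in Itga6low CD80neg. Pdgfd held 0.0946% and 0.361% against 54.0% and 48.8%. Pdgfb held 21.1% and 22.5% against 4.30% and 5.58%, and the share of Pdgfc, at 21.3% and 3.38% against 26.8% and 18.9%, overlapped. With 2 libraries a group, the smallest two-sided p of an exact permutation test is 0.333, so these shares carry no test. Pdgfd lost its call when Itga6hi CD80pos replicate 1 (adjusted p = 0.0624) or replicate 2 (0.0520) was left out.

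**Figure D2:**
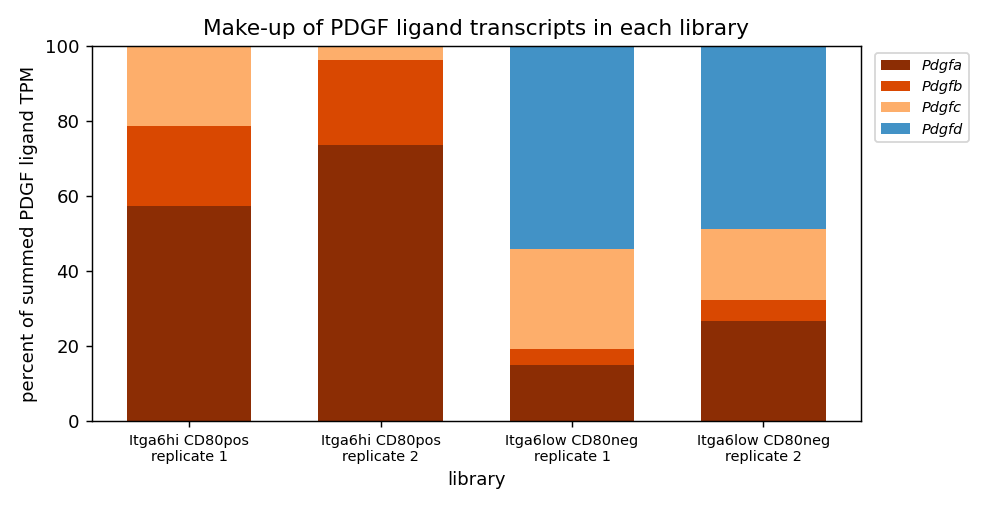
Stacked bars give the percent of the summed TPM of the 4 PDGF ligand genes that each gene held, per library. Pdgfa holds 57.5% and 73.7% in Itga6hi CD80pos, and Pdgfd holds 54.0% and 48.8% in Itga6low CD80neg.

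Both PDGF receptor genes were nearly at 0 in Itga6hi CD80pos. Pdgfra (chromosome 5, 75152292 to 75198215, plus strand), the alpha receptor and a common fibroblast marker, stood at 0.193 and 0.130 TPM in Itga6hi CD80pos and at 65.8 and 29.3 TPM in Itga6low CD80neg. Its log2 fold change was -5.28 ± 0.44 (SE, adjusted p = 0.00315). Pdgfrb (chromosome 18, 61045150 to 61085061, plus strand), the beta receptor of fibroblasts and mural cells, had 0.145 and 0.248 TPM in Itga6hi CD80pos and 41.2 and 15.1 TPM in Itga6low CD80neg, and the log2 fold change was -4.45 ± 0.51 (SE, adjusted p = 0.00456). For both genes every Itga6low CD80neg library lay far above both others, and replicate 1 was the higher of the pair. In Itga6low CD80neg replicate 1, 95.5% of tested genes had a lower TPM than Pdgfra and 93.0% a lower one than Pdgfrb. In its replicate 2 these shares were 86.1% and 76.0%, whereas in both Itga6hi CD80pos libraries they were under 5%.

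The receptor calls held under the other 4 scalings, with adjusted p of 0.00628 to 0.0113 for Pdgfra and 0.0116 to 0.0174 for Pdgfrb. Without Itga6hi CD80pos replicate 1 they were lost (0.0534 and 0.0635), and without its replicate 2 Pdgfra was kept (0.0480) and Pdgfrb was lost (0.0550). The size depends on the pseudocount, since values in Itga6hi CD80pos lie under 1 TPM: the fold changes were -7.41 and -6.42 with a pseudocount of 0.1 and -3.26 and -2.55 with one of 5. The alpha to beta ratio within a library was 1.34 and 0.523 in Itga6hi CD80pos and 1.60 and 1.94 in Itga6low CD80neg. Summed receptor TPM was 8.29 and 2.33 times the summed ligand TPM (A to D chains) in Itga6low CD80neg, and summed ligand TPM was 88.4 and 140 times the receptor sum in Itga6hi CD80pos.

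Fibroblast markers moved with both receptors. Of 15 markers, 14 were lower in Itga6hi CD80pos and 14 were so under all 5 scalings, with a list median log2 fold change of -6.03 beside the -5.28 and -4.45 of the receptors. Of all genes tested, 9.48% were lower and 57.0% higher on deposited TPM, and 8.30% and 6.46% under all 5 scalings. Leaving out Itga6hi CD80pos replicate 1 lost the calls of these markers, as it did over all genes. Without its replicate 2 most of these markers kept their call, whereas most calls over all genes were lost. Dpt, a dermal fibroblast matrix gene, stood at 0.0247 and 0.0772 TPM against 451 and 313 TPM. Per 1000 TPM of fibroblast markers, Pdgfra held 5.46 and 0.979 TPM in Itga6hi CD80pos and 6.66 and 4.22 TPM in Itga6low CD80neg, and Pdgfrb held 4.09 and 1.87 against 4.17 and 2.18 TPM. Most of the fibroblast sum in Itga6hi CD80pos was Postn, at 10.6 and 75.1 TPM, and Pdpn, at 12.7 and 41.1 TPM. Pdpn was the marker that passed in neither direction on deposited TPM (limma adjusted p = 0.0793). It was lower under the other 4 scalings (0.0350 to 0.0378). Pdpn is also known in basal keratinocytes of tumours. Of 12 pericyte and smooth muscle markers 10 passed the filter, 7 were lower and 3 higher (Notch3, Mcam and Ndufa4l2), and 0 or 1 were called without the first or the second Itga6hi CD80pos replicate. Rgs5, a defining pericyte gene, stood at 0.522 and 1.20 TPM against 6.38 and 8.63 TPM. Pdgfrl, a receptor-like gene without a kinase domain, lay on the same side with 0.0558 and 0.103 TPM in Itga6hi CD80pos and 18.0 and 17.2 TPM in Itga6low CD80neg, and was called under all 5 scalings (log2 fold change -4.11 ± 0.27, adjusted p = 0.00195 on deposited TPM). It lost its call without Itga6hi CD80pos replicate 1 (0.0534). The part of fibroblast and mural RNA in the receptor differences was not tested.

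**Figure D3:**
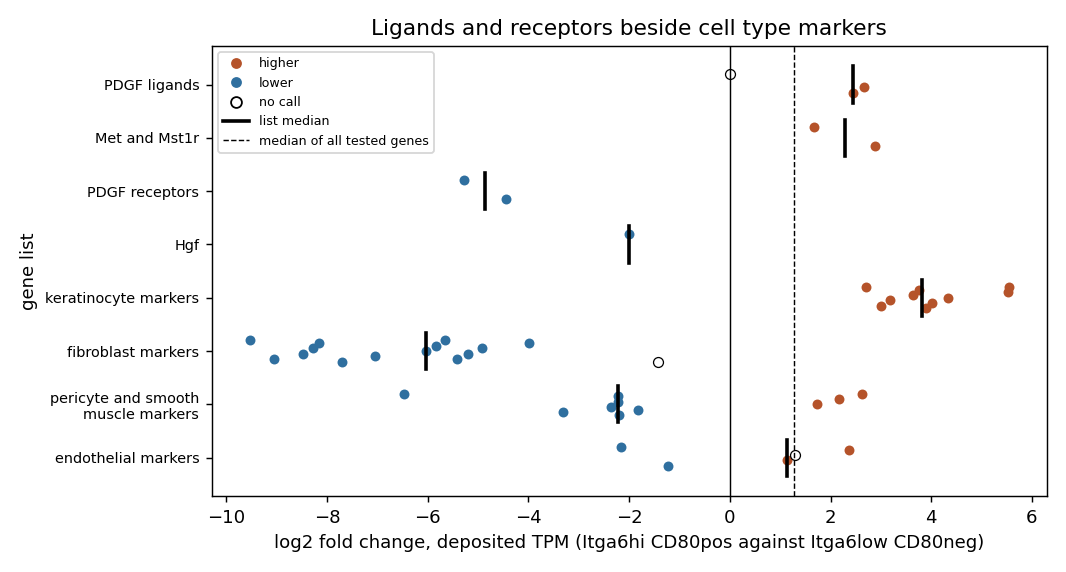
Log2 fold changes on deposited TPM of the ligands and receptors and of cell type markers that passed the filter, 1 point per gene, coloured by call, with bars at list medians. Fibroblast markers have a median of -6.03 and keratinocyte markers one of 3.82, and the dashed line marks the median of all tested genes, 1.27.

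For HGF and its receptor the sides were the reverse of the PDGF A and B chains, with the ligand in Itga6low CD80neg and the receptor in Itga6hi CD80pos. Hgf (chromosome 5, 16553495 to 16620152, plus strand), the ligand of Met, stood at 0.179 and 0.311 TPM in Itga6hi CD80pos and at 3.04 and 5.10 TPM in Itga6low CD80neg. The groups did not overlap, and Hgf stayed at a low level on either side. Its log2 fold change was -2.00 ± 0.32 (SE, adjusted p = 0.00705), and it was called under all 5 scalings, with adjusted p of 0.00939 to 0.0154 in the other 4. With a pseudocount of 0.1 the fold change was -3.58 and with one of 5 it was -0.78. Without Itga6hi CD80pos replicate 1 or 2 the call was lost (adjusted p = 0.0819 and 0.0657). Fibroblast markers moved with Hgf as they did with the PDGF receptors. Per 1000 TPM of those markers Hgf held 5.05 and 2.34 TPM in Itga6hi CD80pos and 0.308 and 0.735 TPM in Itga6low CD80neg. On that scale the sides were exchanged. In Itga6hi CD80pos, however, Hgf at 0.179 and 0.311 TPM was divided by sums of 35.4 and 132 TPM, mostly Postn and Pdpn. At such low values the ratio is no measure of Hgf per fibroblast. The part of fibroblast RNA in the Hgf difference was not tested.

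Met (chromosome 6, 17463800 to 17573980, plus strand), the HGF receptor, stood at 4.69 and 17.0 TPM in Itga6hi CD80pos and at 0.552 and 0.200 TPM in Itga6low CD80neg. The groups did not overlap, although the Itga6hi CD80pos libraries differed from each other by 3.62 times, the widest ratio within a group among the 8 genes. The log2 fold change of 2.89 ± 0.58 (SE, adjusted p = 0.0112) was the highest of the 8 genes on deposited TPM. It lost its call under each of the other 4 scalings (adjusted p = 0.0537 to 0.0900, fold changes of 2.11 to 2.67) and without any 1 of the 4 libraries (0.0508 to 0.0912). Per 1000 TPM of keratinocyte markers Met held 0.0964 and 0.345 TPM in Itga6hi CD80pos and 0.281 and 0.0334 TPM in Itga6low CD80neg, which overlap. The part of the keratinocyte share in the Met difference was not tested.

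Mst1r (chromosome 9, 107906873 to 107920383, plus strand), the MSP receptor RON, had a smaller difference than Met. It had 15.9 and 25.9 TPM in Itga6hi CD80pos and 7.54 and 4.17 TPM in Itga6low CD80neg, with no overlap, and the log2 fold change was 1.68 ± 0.41 (SE, adjusted p = 0.0182). That value is 0.41 above the median of all genes. The other 4 scalings gave 0.40 to 0.65, with adjusted p of 0.426 to 0.651, and the call was kept without Itga6low CD80neg replicate 1 (0.0355) but lost without its replicate 2 (0.0716) or without Itga6hi CD80pos replicate 1 (0.103) or 2 (0.157). Per 1000 TPM of keratinocyte markers Mst1r held 0.327 and 0.526 TPM in Itga6hi CD80pos and 3.84 and 0.697 TPM in Itga6low CD80neg, so the sides were exchanged on that scale. The part of the keratinocyte share in the Mst1r difference was not tested.

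Within libraries, the ratio of the Met family receptors and that of Hgf to Met did not overlap between the groups. Mst1r stood at 3.40 and 1.53 times the level of Met in Itga6hi CD80pos, and at 13.7 and 20.9 times in Itga6low CD80neg. The level of Hgf was 0.0382 and 0.0183 times that of Met in Itga6hi CD80pos, and 5.51 and 25.5 times in Itga6low CD80neg. Mst1, the ligand of RON, lay on the same side as its receptor, unlike Hgf. It had 5.36 and 2.67 TPM against 0.188 and 1.07 TPM, and its log2 fold change was 1.62 ± 0.43 (SE, adjusted p = 0.0228). This call was lost under the other 4 scalings (0.118 to 0.214), without either Itga6hi CD80pos library (0.117 and 0.0678) and without Itga6low CD80neg replicate 1 (0.118).

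**Figure D4:**
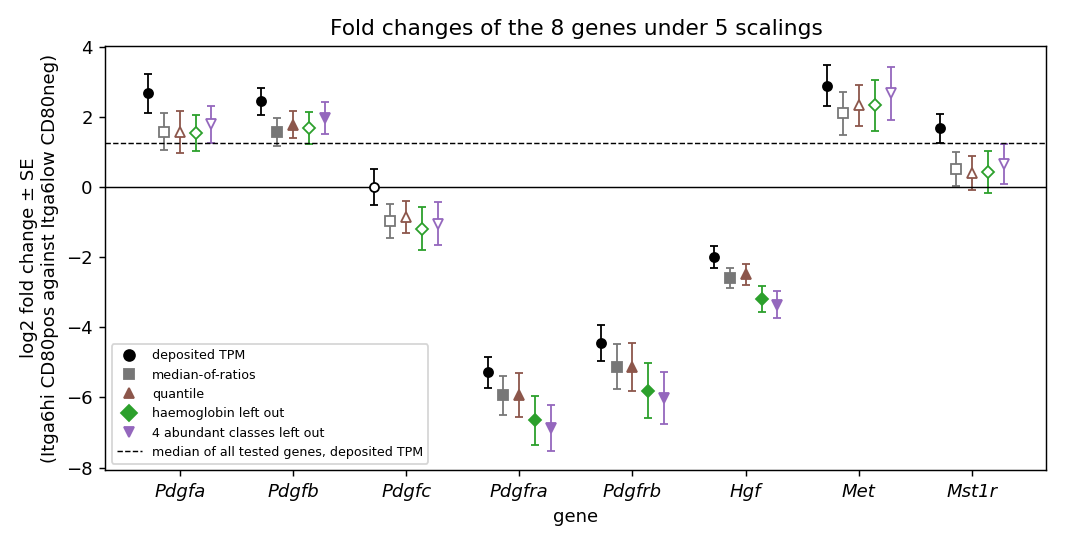
Log2 fold changes ± SE (limma, n = 2 libraries per group) of the 8 genes on deposited TPM and under 4 other scalings, with filled symbols for an adjusted p under 0.05 and a dashed line at the median of all tested genes on deposited TPM, 1.27. Pdgfra, Pdgfrb and Hgf stay filled under all 5 scalings, and Met, Mst1r and Pdgfa are filled on deposited TPM only.

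In order of mean level, Itga6hi CD80pos had Pdgfa first at 28.1 ± 15.5 TPM (SD, n = 2), then Mst1r at 20.9 ± 7.04, Met at 10.8 ± 8.67, Pdgfb at 9.12 ± 3.98 and Pdgfc at 4.08 ± 3.24 TPM. The ranges of neighbours overlapped at each step, although within each of the 2 libraries Pdgfa lay above Mst1r and Mst1r above Met. Hgf at 0.245 ± 0.0932, Pdgfrb at 0.196 ± 0.0734 and Pdgfra at 0.162 ± 0.0450 TPM came last, below the lowest Pdgfc library and overlapping each other. Itga6low CD80neg had Pdgfra first at 47.6 ± 25.8 TPM and Pdgfrb next at 28.2 ± 18.4 TPM. Their ranges overlapped, with Pdgfra above Pdgfrb within each library. Mst1r at 5.86 ± 2.38, Hgf at 4.07 ± 1.46, Pdgfc at 3.53 ± 0.108 and Pdgfa at 3.52 ± 2.25 TPM came next. All 4 lay below both receptors in each library, and the order among them differed between the libraries, with Mst1r above the other three in replicate 1 and below Pdgfa and Hgf in replicate 2. The lowest were Pdgfb at 0.810 ± 0.361 and Met at 0.376 ± 0.249 TPM.

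Other genes are annotated over 5 of the 8. The antisense RNA 6330403L08Rik over Pdgfa stood at 0.839 and 2.14 TPM in Itga6hi CD80pos and at 0.162 and 0.0391 TPM in Itga6low CD80neg. The antisense genes over Pdgfb, Pdgfc and Pdgfra reached at most 0.344 TPM. The microRNA gene Mir7025 within Pdgfra was listed at 17.6 TPM in Itga6low CD80neg replicate 2 and at 0 in the other libraries. The strand setting is not given in the sources used here, so reads of a gene and its antisense partner may not be told apart.

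Proteinases that free or ripen the ligands lay on both sides. Of 15 listed genes 10 passed the filter, 6 were higher and 3 lower in Itga6hi CD80pos, and 1 and 2 of these were called under all 5 scalings. Of all tested genes, 57.0% were higher and 9.48% lower on deposited TPM, and 6.46% and 8.30% under all 5 scalings. The list median log2 fold change was 1.16, beside 1.27 for all genes. Plat, the tissue plasminogen activator that frees PDGF-C, was lower, with 0.907 and 1.16 TPM in Itga6hi CD80pos and 47.8 and 52.2 TPM in Itga6low CD80neg. Its log2 fold change was -4.65 ± 0.29 (SE, adjusted p = 0.00189). Plau, the urokinase that acts on PDGF-D and HGF, was higher, at 97.1 and 132 TPM against 35.4 and 25.6 TPM, and the log2 fold change was 1.88 ± 0.39 (SE, adjusted p = 0.0116). Its call was lost under the other 4 scalings (0.253 to 0.476).

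St14, the epithelial proteinase matriptase that activates HGF and MSP, was higher and called under all 5 scalings. It had 68.3 and 58.2 TPM against 4.16 and 7.21 TPM, and the log2 fold change was 3.30 ± 0.36 (SE, adjusted p = 0.00434). Furin, a convertase that cuts the PDGF A and B precursors, was higher, with 61.3 and 69.6 TPM against 13.5 and 16.3 TPM (log2 fold change 2.06 ± 0.32, adjusted p = 0.00684, and 0.0515 to 0.129 under the other scalings). Pcsk5, another convertase, was lower, with 1.11 and 0.214 TPM against 12.2 and 5.09 TPM, and called under all 5 scalings. Hpn and Hgfac, the HGF activators hepsin and HGFA, were under the filter, with at most 1.14 and 1.68 TPM in any library. Plaur, the urokinase receptor, passed in neither direction, with 5.45 and 8.98 TPM in Itga6hi CD80pos and 10.7 and 18.5 TPM in Itga6low CD80neg (adjusted p = 0.0965), though it was lower under the other 4 scalings (0.0209 to 0.0224). Without Itga6hi CD80pos replicate 1, 0 genes of the list were called, and without its replicate 2 only Plat was (0.0472).

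The matriptase inhibitors followed St14. Spint1, which encodes HAI-1, was higher, with 30.5 and 35.8 TPM against 2.62 and 10.1 TPM (log2 fold change 2.42 ± 0.58, adjusted p = 0.0168, and 0.0853 to 0.187 under the other scalings). Spint2, which encodes HAI-2, was higher too, with 202 and 246 TPM against 12.5 and 50.4 TPM (3.08 ± 0.69, adjusted p = 0.0143, and 0.0478 to 0.0782 under the other scalings). Of 8 listed inhibitors 5 passed the filter, 2 were higher and 0 lower, beside 57.0% and 9.48% of all genes, with a list median of 1.41 beside 1.27. The urokinase inhibitor Serpinb2 and the protease nexin Serpine2 passed in neither direction on deposited TPM, with adjusted p of 0.232 and 0.243. The other scalings gave 0.0464 to 0.0553 for Serpine2. Neither Spint gene was called without Itga6hi CD80pos replicate 1 (0.113 and 0.104) or replicate 2 (0.114 and 0.105).

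Co-receptors and partners of these receptors lay on both sides. Of 11 genes, all tested, 5 were higher and 4 lower in Itga6hi CD80pos, with 3 of each called under all 5 scalings. Over all genes the shares were 57.0% higher and 9.48% lower on deposited TPM, and 6.46% and 8.30% under all 5 scalings. The list median was 0.93, beside 1.27 for all genes. Itgb4, an integrin partner of Met, was higher, with 142 and 307 TPM against 0.992 and 2.42 TPM. It is the partner chain of Itga6, one of the markers used in the sort. Plxnb1, a semaphorin receptor that associates with Met, was higher, with 27.6 and 28.9 TPM against 1.18 and 1.18 TPM. Cd44, whose variant forms act with Met, was higher, with 160 and 167 TPM against 16.8 and 20.8 TPM. Sparc, a matrix protein that binds PDGF, was lower, with 34.3 and 140 TPM against 1697 and 1785 TPM. Lrp1, an endocytic partner of Pdgfrb, was lower, with 19.3 and 21.1 TPM against 270 and 86.3 TPM, and so was Itgb3, an integrin partner of that receptor. The neuropilin Nrp2 and the proteoglycan Cspg4 passed in neither direction (adjusted p = 0.0696 and 0.211). Only Itgb4 and Plxnb1 were called without Itga6hi CD80pos replicate 2 (0.0472 and 0.0474), and 0 partners were called without its replicate 1.

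Negative regulators gave 7 higher and 1 lower of 15 tested, with 2 and 1 called under all 5 scalings. Both deposited-TPM counts lie at or below the shares over all genes, 57.0% and 9.48%, and those over all scalings were 6.46% and 8.30%. The list median was 0.83, beside 1.27 for all genes. The lower gene was Dcn, encoding decorin, a matrix proteoglycan of fibroblasts that binds Met and blocks it. It had 1.27 and 1.10 TPM against 1086 and 935 TPM, and its log2 fold change was -8.85 ± 0.33 (SE, adjusted p = 0.00162). Among higher genes, Dusp6, an ERK phosphatase and known ERK target, had 134 and 211 TPM against 11.0 and 33.6 TPM (log2 fold change 3.06 ± 0.61, adjusted p = 0.0108, and 0.0361 to 0.0605 under the other scalings). Cblc, an epithelial ubiquitin ligase, and Ptpn1, a phosphatase acting on Met, were called under all 5 scalings. The level of Cblc was 23.9 and 24.6 TPM against 1.66 and 3.82 TPM, and that of Ptpn1 98.4 and 106 TPM against 12.6 and 19.5 TPM. Dcn was the only regulator called without Itga6hi CD80pos replicate 2 (0.0472), and 0 were called without its replicate 1.

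Adaptors and effectors shared by these receptors gave 17 higher and 0 lower of 21, all tested, where 57.0% and 9.48% of all genes were called. Of the 21 genes, 1 was higher under all 5 scalings, a share near the 6.46% of all genes. The list median was 1.57, beside 1.27 for all genes. Grb2, the adaptor that links both receptor families to Ras, was higher, with 38.5 and 38.8 TPM against 10.2 and 12.2 TPM. Src, a kinase recruited by both families, had 40.9 and 47.1 TPM against 8.79 and 5.95 TPM, and Pik3r2, a regulatory subunit of PI3K, 57.2 and 40.6 TPM against 11.4 and 8.80 TPM. The PI3K subunits Pik3ca and Pik3r1, the adaptor Nck1 and the kinase Mapk3 passed in neither direction on deposited TPM, with adjusted p of 0.0932 to 0.882. Without Itga6hi CD80pos replicate 1 or replicate 2, 0 genes of this list were called by limma.

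**Figure D5:**
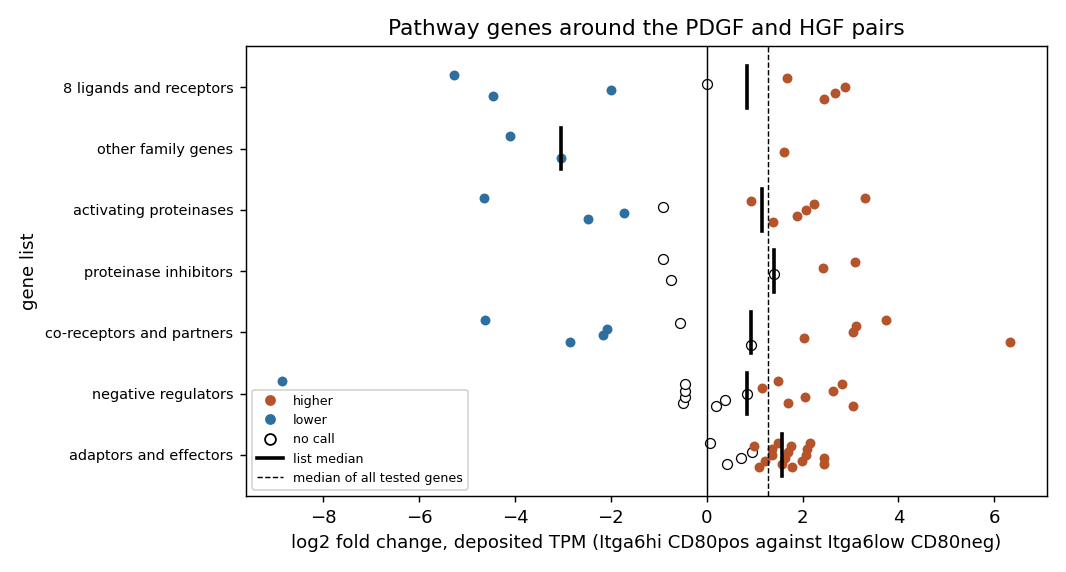
Log2 fold changes on deposited TPM of the 8 ligands and receptors and of 6 lists of genes around them, 1 point per tested gene, coloured by call, with bars at list medians and a dashed line at the median of all tested genes, 1.27. Adaptors and effectors lie close to the dashed line, while Dcn at -8.85 is the lowest point and Itgb4 at 6.33 the highest.

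Genes with the most similar pattern were sought among 9325 tested genes, by the root mean square difference of centred log2(TPM + 1) over the 4 libraries. Nearest to Pdgfra were Loxl2, at 0.239 and 0.240 TPM against 68.5 and 32.8 TPM (difference 0.0458), Col5a3 and Adamts2, genes of collagen and its processing. Nearest to Pdgfrb were Lama2, a laminin chain (0.0753), Fgf7, a fibroblast growth factor (0.0966), and Acta1, the skeletal muscle actin (0.103). Nearest to Pdgfa were Irx3, at 51.5 and 102 TPM against 7.18 and 16.2 TPM (0.0608), Hoxa5 and Vps37b. Pdgfb was nearest to B4galnt1 (0.0926) and Nt5e (0.111), and Mst1r to Trib1 (0.0580), Runx1 and Pitpnc1. Met had no close match, with Wnt3a at a difference of 0.202, Ctnnal1 and Ccnd2. Hgf was nearest to Mir99ahg (0.0698), Ikbip and Copz2, and Pdgfc to Sqor (0.0759), Tubb2b and Selenbp1. With 4 libraries these are descriptions only.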

How the data were processed

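The labels list 6 libraries of polyA RNA in 3 groups, and the table used here has columns for 4 of them. Per the labels, a Zymo microprep kit gave the RNA and a NEBNext kit for low input the libraries. The values deposited by the authors are TPM per gene, made with kallisto 0.44.0 on mm10 per the submitters' processing notes. The annotation, the summing to genes and the strand setting are not given in the sources used here. The 96 spike-in rows were at 0 and were left out.

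The fit took the 13474 genes that reached 1 TPM in 2 libraries or more, on log2(TPM + 1), with limma 3.58.1 in R 4.3.3 (lmFit, eBayes with a trend). Tests were two-sided and Benjamini-Hochberg adjusted over all of these genes, at 0.05. The fit had 2 residual and 3.33 prior degrees of freedom, and was tested on simulated data. Those data had few changed genes, equally up and down, so that test does not cover a shift over all genes as seen here. Other scalings were median-of-ratios over 16860 genes, quantile normalization, and totals without haemoglobin or without mitochondrial, ribosomal protein, haemoglobin and keratin genes. These put the median over all genes at 0.24, 0.27, 0.16 and 0.37 (log2), against 1.27 on deposited TPM. Other pseudocounts and filters, a fit with no trend, leaving out each library and a replicate block were also tried. The labels do not say that replicates came from separate animals, so p-values measure only the spread between libraries, which may be technical.

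Members and lists were chosen with earlier results of these data known. The rule for named genes covers the 8 members, called pathway genes with a few preset ones, the 3 nearest patterns of each member and the marker with the highest TPM in each list. Some genes that this rule covers are not reported here. Uncalled pathway genes, and the markers Cdh5, Egfl7, Pf4, Rgs5, Notch3, Mcam, Dpt, Postn and Pdpn, were added after their values were seen. Coordinates are GENCODE M21 on GRCm38, matched by gene ID, and promoters are RefSeq on GRCm38.p6, matched by symbol.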

Additional observations from a re-analysis of the deposited data

How the results depend on the processing

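Every member but Pdgfc kept the direction of its fold change in each alternative run that gave it a value. Calls were not always kept. Members called higher numbered 4 on deposited TPM, 1 with no filter, 1 under median-of-ratios scaling, 1 under quantile normalization, 0 without haemoglobin and 1 without 4 abundant classes; leaving out 1 library gave 0 to 2 higher and 0 to 3 lower. Calls were lost with no filter for Met (2.89), Mst1r (1.68) and Pdgfa (2.67), whose fold changes do not move there. Under median-of-ratios scaling the log2 fold changes of Met, Mst1r, Pdgfa and Pdgfc were 2.11, 0.52, 1.57 and -0.97, under quantile normalization 2.33, 0.40, 1.57 and -0.86, without haemoglobin 2.33, 0.42, 1.54 and -1.19, and without the 4 classes 2.67, 0.65, 1.78 and -1.04. Met, Mst1r and Pdgfa lost their calls there, Pdgfb lost its call only without haemoglobin (1.68), and the Pdgfc value, never called, turned negative, as it did at -0.054 with a pseudocount of 0.1. Leaving out 1 library at a time gave 2.06 to 3.72 for Met, 1.32 to 2.04 for Mst1r, 2.10 to 3.24 for Pdgfa, 2.03 to 2.85 for Pdgfb, -0.70 to 0.70 for Pdgfc, -5.85 to -4.71 for Pdgfra, -5.14 to -3.75 for Pdgfrb and -2.29 to -1.70 for Hgf. Over all genes, 7686 were higher and 1277 lower; the higher ones numbered 4564 with no filter, 1372 under median-of-ratios scaling, 1448 under quantile normalization, 1040 without haemoglobin and 1798 without the 4 classes, and the lower ones 613 with a mean of at least 5 TPM. Leaving out 1 library gave 0 to 8227 higher and 0 to 1237 lower, with 0 of each without Itga6hi CD80pos replicate 1, where 4442 and 1033 had an unadjusted p under 0.05. The causes were not tested. The labels give both groups replicate numbers 1 and 2, but with 2 pairs (correlation of deviations 0.109) they share only a number. The replicate block left every member on its side of the threshold and gave 8044 genes higher and 1452 lower over all genes. It left 1 residual degree of freedom, and its prior degrees of freedom were infinite. Genes of similar level then share 1 variance, so calls kept there say little about the spread of each gene. Pdgfb, Pdgfc and Hgf fell under a mean of at least 5 TPM and gave no value there. Depth is unknown, so no limit of detection is given.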
